A study of Venturia canescens with 18 samples.

Results

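Females of the parasitoid wasp Venturia canescens that had been courted by an unrelated male were compared with females kept alone, in 6 pools of heads out of the 9 in the series. The 3 pools of the unrelated group came from newly emerged virgin females, each boxed for at most 10 min with a male that was not kin. The labels call such a male compatible. The 3 pools of the isolated group came from virgin females boxed for the same time with no male. Pools were chosen by their label alone, each is the sum of 2 technical replicates (12 libraries of the 18 in the series), and the 3 pools of females courted by a brother were kept out of the fit. Founders were caught in the wild in French orchards, the stock was kept on the flour moth Ephestia kuehniella as host, and wasps were fed honey water. Each pool mixes heads (10 per condition, per the labels' protocols, with no statement of whether that is per replicate), so brain, eyes, antennae, muscle and fat body are read together. Less RNA per cell cannot be told apart from fewer cells of a type. The labels give 3 biological replicates per group, each with 2 technical replicates. Whether pools of one group differed in family or day is not in the labels. The p-values below cover no spread beyond that of these pools, which includes technical variation.

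Venturia canescens lays its eggs in moth larvae, and its males approach and court females on scent before mating. Sex in this wasp is set by complementary sex determination, in which an egg that carries matching alleles at the sex locus develops into a diploid male in place of a daughter. Mating with a brother makes such a match more likely, which makes telling kin from non-kin during courtship of use to a female. In insect brains, a brief social or sensory stimulus is known to raise first the transcripts of immediate early genes, which encode transcription factors. The deposited loci carry only XLOC identifiers. Of the 16752 identifiers, 0 occur among the 14011 genes of the RefSeq table searched, so neither these factors nor markers of head tissues could be looked up, and the 4 loci described singly are given by identifier with no role.

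Depth was 62341897, 84765233 and 74122308 counts in isolated pools 1, 2 and 3, against 65809907, 77756638 and 103527471 in unrelated pools 1, 2 and 3. At least 16037 loci had a count in each pool, and 543 had none in any of the 6. Between both technical replicates of each pool, Spearman correlations in log2 CPM were 0.989 to 0.992 (CPM, counts scaled to library size). Isolated pools varied with a common biological coefficient of variation of 12.6% and unrelated pools with one of 13.3%, where technical replicates gave 7.07%.

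The 6 pools did not fall into 2 tight groups. Along a first principal component that held 37.3% of the variance in log2 CPM, isolated pools 1 and 3 scored -33.8 and -28.3, and unrelated pools 1, 2 and 3 scored 37.6, 12.5 and 15.6. Isolated pool 2, at -3.64, lay between them. The second component, with 20.4%, set unrelated pool 1 (29.3) apart from unrelated pools 2 (-25.6) and 3 (-20.8). The root-mean-square log2 difference over all tested loci was 0.443 to 0.503 between isolated pools, 0.402 to 0.519 between unrelated pools and 0.460 to 0.638 between pools of different groups. Isolated pool 2 was closer to unrelated pool 2 (0.460) than to isolated pool 1 (0.503) or isolated pool 3 (0.461).

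**Figure D1:**
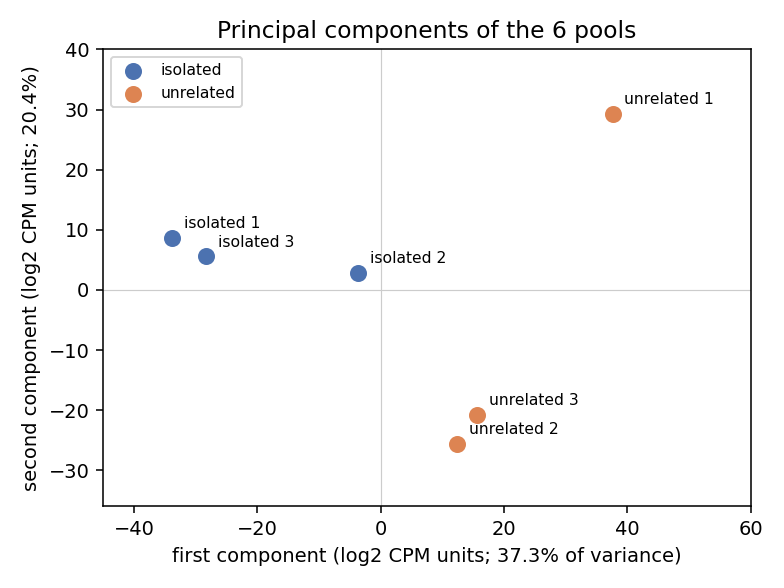
First and second principal components of log2 CPM over all tested loci, with 1 point per pool, isolated pools in blue and unrelated pools in orange. All isolated pools lie left of all unrelated pools on the first component, with isolated pool 2 at -3.64 nearest to the unrelated pools.

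Courtship by an unrelated male was set against isolation to ask what a few minutes with such a male change in the head. After courtship, 543 loci were higher and 504 were lower among 15219 tested (edgeR quasi-likelihood test, Benjamini-Hochberg adjusted p under 0.05, 6 pools alone). That is 6.88% of the loci tested, with 3.57% higher and 3.31% lower. The changes were small. Loci that rose had a median log2 fold change of 0.48, or 1.40-fold, and loci that fell had a median of -0.36, or 1.28-fold lower, where the median over all tested loci was -0.02. Only 91 of the higher and 48 of the lower loci changed by 2-fold or more.

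More of the higher than of the lower loci passed 1.3-fold. Of the 543 higher loci, 183 rose by under 1.3-fold, 269 by 1.3- to 2-fold, 82 by 2- to 4-fold and 9 by 4- to 8-fold. Of the 504 lower loci, 277 fell by under 1.3-fold, 179 by 1.3- to 2-fold, 41 by 2- to 4-fold, 5 by 4- to 8-fold and 2 by over 8-fold. Both directions were about equally common among all loci with an unadjusted p under 0.05 in this fit (edgeR), at 1903 higher and 1899 lower. That balance depended on how libraries were scaled. It was 2090 higher and 1729 lower under RLE scaling, 1830 and 1958 under upper-quartile scaling, and 2247 and 1431 with none. With library sizes left unscaled, the calls split into 575 higher and 354 lower.

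**Figure D2:**
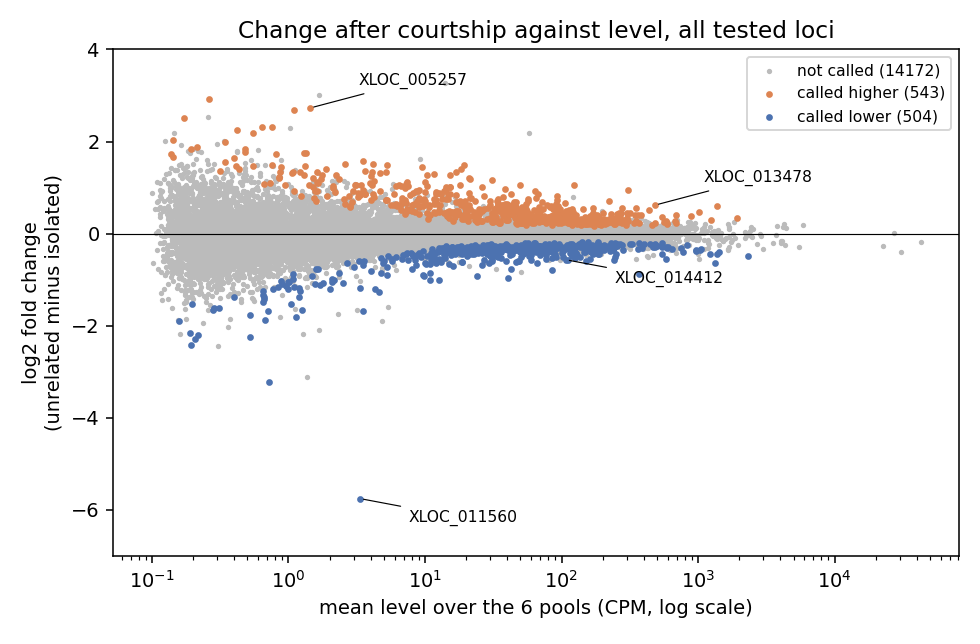
Log2 fold change (unrelated minus isolated) of each tested locus against its mean CPM over the 6 pools on a log scale. Loci called higher are orange (543), loci called lower are blue (504), and the rest are grey. Called loci lie closer to 0 the more abundant they are, and XLOC_011560 stands alone at the bottom.

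In each of the 1047 called loci, the 3 unrelated pools lay wholly above or wholly below the 3 isolated pools. Such separation was common, since it was seen at 4697 of the tested loci (30.9%), and 3650 of these were not called. The gap between the nearest pools of the 2 groups had a median of 0.21 on the log2 scale among the called loci. Their median range was 0.22 within the isolated group and 0.15 within the unrelated group. At 425 called loci, 186 higher and 239 lower, the gap was wider than the range of either group, and at 210 it was under 1.1-fold. Isolated pool 2 was the isolated pool nearest to the unrelated group at 474 of the 543 higher and 350 of the 504 lower loci. Gaps, ranges and nearest pools were taken only at called loci, which were chosen on the same pools. They describe those loci and are no test, and they were not taken over all tested loci.

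The most abundant loci were called most often and for the smallest changes. Among 2077 loci with a mean above 100 CPM, 12.9% were called, with a median absolute log2 fold change of 0.30 and the smallest call at 0.17. Among 5121 loci of 10 to 100 CPM, 10.8% were called, with a median of 0.38. Of 3816 loci of 1 to 10 CPM, 4.51% were called with a median of 0.88, and here higher loci (111) outnumbered lower loci (61). Of 4205 loci under 1 CPM, 1.33% were called, and none of these 56 changed by less than 2-fold. The median standard error of the log2 fold change was 0.38 under 1 CPM and 0.057 above 100 CPM. Small changes of rare transcripts were thus not detectable in this fit. Over all levels, 426 loci differed by 2-fold or more and 287 of them were not called.

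**Figure D3:**
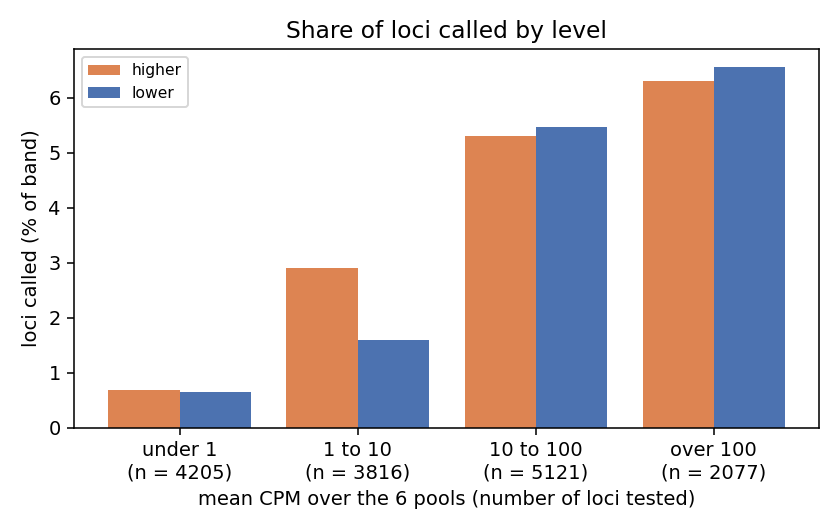
Percentage of tested loci called higher (orange) or lower (blue) after courtship, in 4 bands of mean CPM over the 6 pools, with the number tested under each band. The share called in either direction rises from 1.33% under 1 CPM to 12.9% above 100 CPM.

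As a share of all counts, the 543 higher loci took 3.72%, 4.40% and 3.82% in isolated pools 1, 2 and 3 and 5.39%, 5.23% and 5.27% in unrelated pools 1, 2 and 3. The 504 lower loci took 5.89%, 5.76% and 6.22% in the isolated and 4.77%, 4.83% and 4.72% in the unrelated pools. The calls chose these loci, so the shares describe how much of the transcriptome they cover and are no test. Loci that changed by 2-fold or more held at most 0.0978% of the counts of any pool when higher and at most 0.0103% when lower. In the 3 brother pools, which had no part in the choice, the higher loci took 5.94%, 4.75% and 5.18% and the lower loci 4.59%, 4.87% and 4.52%. A comparison of brother pools with isolation uses the same isolated pools as the choice of these loci.

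Very few transcripts were present in one group alone. Counts were found in the unrelated but not the isolated pools at 14 loci, with at most 12 counts over the 3 unrelated pools. The reverse held at 12 loci, with at most 61 counts over the 3 isolated pools. None of these passed the filter on low counts, so no locus called was without counts in either group.

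Of the loci that rose, XLOC_013478 had the smallest p. It is an abundant transcript, at 379, 398 and 364 CPM in isolated pools 1, 2 and 3 and at 588, 552 and 611 CPM in unrelated pools 1, 2 and 3. All unrelated pools were above all isolated pools, but non-overlapping pools were a condition for each locus described singly. The margin was wider than the spread within either group, which choosing by the smallest p favours. The mean of XLOC_013478 rose from 380 ± 17.0 to 583 ± 29.7 CPM (SD, n = 3 each). The log2 fold change came to 0.62 with a standard error (SE) of 0.058 and an edgeR adjusted p of 0.0096.

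XLOC_005257 was the eligible locus that rose most, and it is a rare transcript. It met the mean of at least 1 CPM only through the unrelated group, with means of 0.375 CPM isolated and 2.50 CPM unrelated. A rule of this kind favours a large rise. Isolated pools 1, 2 and 3 held 9, 26 and 49 counts (0.149, 0.302 and 0.674 CPM), and unrelated pools 1, 2 and 3 held 75, 177 and 436 counts (1.14, 2.22 and 4.14 CPM). Levels thus varied several-fold within each group without overlapping between them. The log2 fold change was 2.73 ± 0.56 (SE; edgeR adjusted p = 0.0291). It passed the test without isolated pool 2 and without unrelated pool 1 but with none of the other 4 pools left out, where edgeR adjusted p was 0.0589 to 0.0812. A robust fit gave 0.0522.

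Of the loci that fell, XLOC_014412 had the smallest p. Its level was 130.0, 124 and 129 CPM in isolated pools 1, 2 and 3 and 89.5, 87.1 and 82.3 CPM in unrelated pools 1, 2 and 3. Every unrelated pool was lower than every isolated pool, with little spread in either group. The means were 128 ± 3.26 and 86.3 ± 3.65 CPM (SD, n = 3 each), and the log2 fold change was -0.57 ± 0.052 (SE; edgeR adjusted p = 0.0096). XLOC_013478 and XLOC_014412 passed the test with any one pool left out except isolated pool 3, without which edgeR adjusted p was 0.0538 for both.

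The largest change of any called locus was that of XLOC_011560, and it rested on part of the isolated group. Isolated pools 1 and 2 held 493 and 970 counts (8.19 and 11.3 CPM), whereas isolated pool 3 held 11 counts (0.151 CPM). Unrelated pools 1, 2 and 3 held 7, 11 and 12 counts (0.107, 0.138 and 0.114 CPM), just under isolated pool 3. A floor of 3 counts lay at 0.0285 to 0.0498 CPM in these pools. The locus met the mean of at least 1 CPM only through isolated pools 1 and 2, which favours a large fall. Fitted over all 6 pools, the log2 fold change was -5.75 ± 1.23 (SE; edgeR adjusted p = 0.0324), and the gap between the nearest pools of the 2 groups was 0.10 on the log2 scale. On the log2(CPM + 0.05) scale it was the only called locus whose isolated pools ranged over more than 4-fold. The call was kept without isolated pool 2 or 3 and lost without any of the other 4 pools (edgeR adjusted p from 0.0712 to 0.0973). A robust fit gave an edgeR adjusted p of 0.141 and limma-voom gave 0.383.

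**Figure D4:**
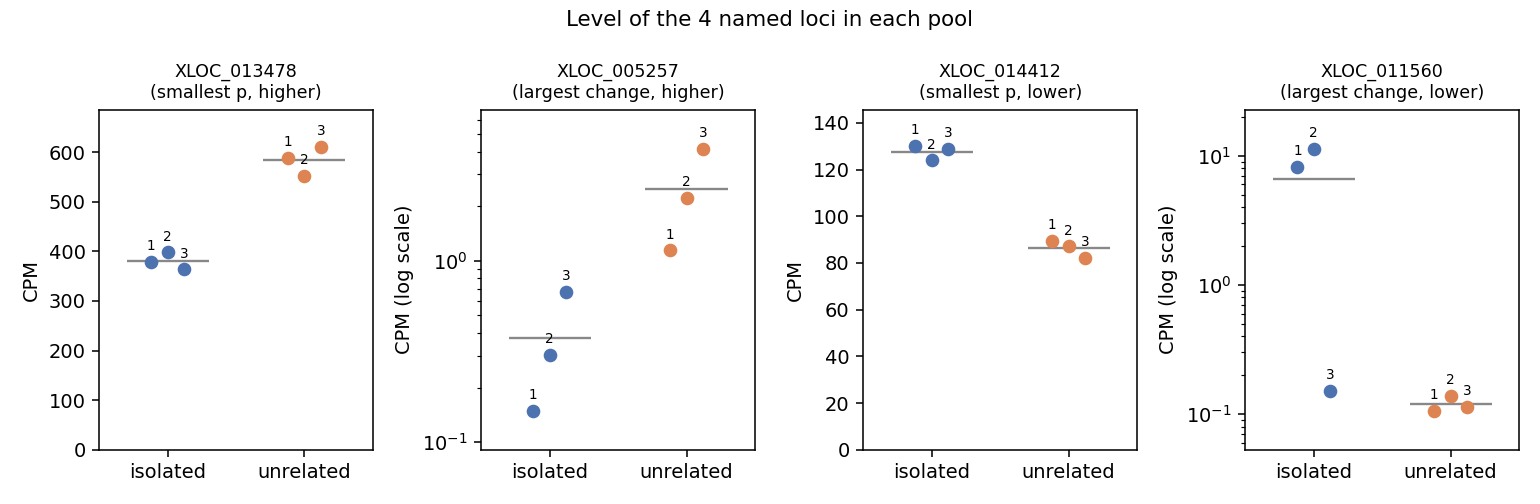
CPM of the 4 named loci in each pool (numbered points, isolated in blue and unrelated in orange, grey line at the mean of 3 pools), on a linear scale from 0 for the loci with the smallest p and on a log scale for those with the largest change. Isolated pool 3 of XLOC_011560, at 0.151 CPM, lies beside the unrelated pools.

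The brother pools give the level of the same loci after courtship by a brother, which the labels call an incompatible male. In the fit of all 9 pools, in which 0.194% of 15486 loci differed between unrelated and brother pools, XLOC_013478 stood at 474, 616 and 619 CPM in brother pools 1, 2 and 3, and the log2 difference (unrelated minus brother) was 0.03 ± 0.098 (SE; edgeR adjusted p = 0.969). XLOC_014412 stood at 92.6, 88.3 and 82.1 CPM, with a log2 difference of -0.03 ± 0.067 (SE; edgeR adjusted p = 0.957). At XLOC_013478, brother pool 1 lay between the isolated and the unrelated pools.

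The rarer loci were also read in the brother pools. XLOC_005257 stood at 0.412, 0.347 and 0.325 CPM in the brother pools, inside the range of the isolated pools, and the log2 difference (unrelated minus brother) was 2.78 ± 0.60 (SE; edgeR adjusted p = 0.191 with all 9 pools). When brother pool 1 was left out it passed the test (log2 difference 2.91, edgeR adjusted p = 0.0383), and when the 6 courted pools were fitted alone it did not (log2 difference 2.78, edgeR adjusted p = 0.391). XLOC_011560 stood at 0.212, 0.631 and 1.07 CPM in the brother pools, between isolated pool 3 and isolated pool 1, with a log2 difference of -2.38 ± 1.24 (SE; edgeR adjusted p = 0.760).

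Each pool was read in both sequencing runs, and the runs were also fitted apart. Technical replicates carry different run and lane names in their titles, and every pool of both groups was in both runs. The runs did not weigh alike in the sums. Unrelated pool 3 had 67940613 counts from the first and 35586858 from the second, whereas every other pool of both groups had more from the second. What this does to the fit on summed counts was not tested. Fitted on the first technical replicates alone, 477 loci were higher and 302 lower (5.65% of 13796 tested), and on the second alone 481 were higher and 385 lower (6.05% of 14322 tested). Of the 1047 loci called on summed counts, 1031 were tested in both runs, and 542 passed the adjusted threshold in both. Those loci were chosen on the sum of the same runs, and the runs share the same RNA pools, so this count is a description and says nothing of the spread between females.

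The number of loci called depended on which pool was left out. Each such fit also has fewer pools, which by itself can lower the number. The number called was 2291 without isolated pool 2, 35 without isolated pool 1 and 1 without isolated pool 3. That 1 locus was XLOC_011560 (log2 fold change -6.31, edgeR adjusted p = 8.5e-05), whose low isolated pool was the one left out. Leaving out unrelated pools 1, 2 and 3 in turn gave 542, 283 and 138. No locus was called in all 6 of these fits, 30 were called in at least 5, and 34 in none. Many calls lay near the threshold with all 6 pools, since 6 loci had an edgeR adjusted p under 0.01, 239 under 0.02 and 2125 under 0.1. Without isolated pool 3, 2622 loci still had an unadjusted p under 0.05 and 304 an edgeR adjusted p under 0.1.

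**Figure D5:**
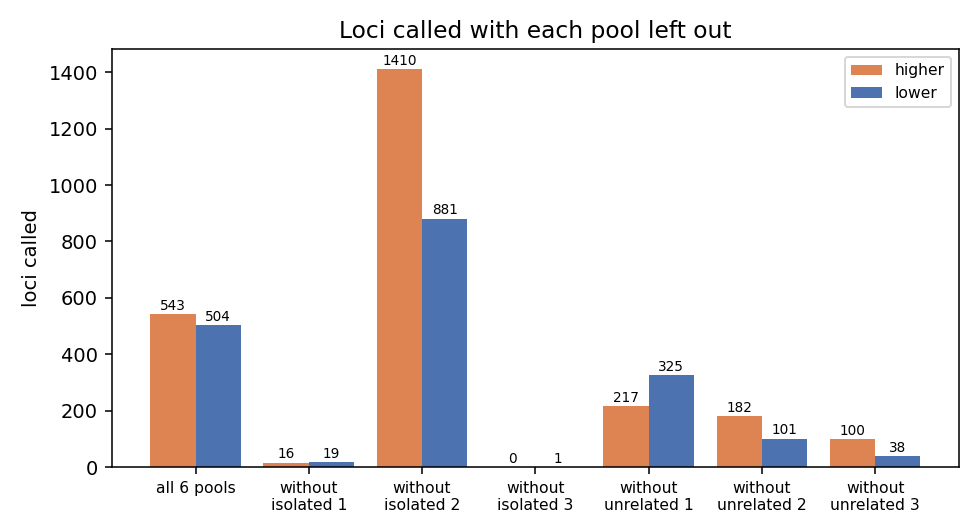
Number of loci called higher (orange) and lower (blue) with all 6 pools and with each pool left out in turn (edgeR, adjusted p under 0.05). The count rises to 1410 higher and 881 lower without isolated pool 2 and falls to 1 lower locus without isolated pool 3.

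Calls also depended on what was asked of the size of the change and on which pools were fitted. When the test asked for a change beyond 1.2-fold, 9 loci passed (6 higher, 3 lower), XLOC_013478 and XLOC_014412 among them. When it asked for one beyond 2-fold, 0 passed with edgeR's glmTreat, and 108 had an unadjusted p under 0.05. In the fit that took in all 9 pools, 0 loci passed and 1678 had an unadjusted p under 0.05 (edgeR). There, edgeR adjusted p was 0.133 for XLOC_014412, 0.197 for XLOC_013478 and 0.244 for XLOC_005257 and XLOC_011560. With brother pool 1 left out of that fit, 807 loci were called (438 higher, 369 lower). Of these, 777 were also called in the same direction on the 6 pools. On the 6 pools, edgeR called 1047 and limma-voom called 1045, each of 15219 loci tested. DESeq2 called 2000 of the 12754 loci to which it gave an adjusted p. Of the edgeR calls, 1023 were among these in the same direction.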

How the data were processed

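Raw counts per locus were deposited by the authors as one table with a column per library. The submitters' processing notes name Trimmomatic 0.36, TopHat, Cufflinks and HTSeq; for build, annotation and strand the sources used here give nothing. How reads of overlapping or near-identical loci were counted is therefore not known here, and such loci may not be told apart. Libraries were TruSeq Stranded mRNA read as pairs, per the labels' protocols. The isolated group was read from the columns whose names mention no kinship.

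Technical replicates were summed. Loci were kept by filterByExpr, scaled by TMM and tested by quasi-likelihood in edgeR 4.0.16 (R 4.3.3), adjusted over all loci tested, threshold 0.05. DESeq2 1.42.0 and limma 3.58.1 were alternatives. A standard error is the absolute log2 fold change over the square root of F. Gaps and ranges between pools were taken on log2(CPM + 0.05). Depths were 62341897 to 103527471 counts per pool, and the floor of 3 counts covers counting error only.

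Named loci were called, had non-overlapping pools and a mean of at least 1 CPM; in each direction, the smallest p and then the largest change were taken. Brother levels use library sizes scaled over 9 pools. The pools, lists and rules were chosen with earlier results of these data known. Planned gene lists needed names and were not tested.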

Additional observations from a re-analysis of the deposited data

How the results depend on the processing

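Numbers of loci called (main: 1047, 543 higher, 504 lower) stayed within 1.5 times under RLE, upper-quartile and no scaling, both filters, limma-voom on 6 pools, a robust fit, the second technical replicate alone and all pools but brother pool 1; with the first technical replicate alone only the lower count moved further, to 302. DESeq2 called 2000 (1151 higher, 849 lower) of the 12754 loci to which it gave an adjusted p. With duplicateCorrelation on 12 libraries limma-voom called 2137 (1217 higher, 920 lower; median log2 fold change of the higher loci 0.33). A minimum change of 1.2-fold left 9 (6 higher, median 1.28; 3 lower, median -0.92), and one of 2-fold left 0, 0 higher and 0 lower, as did the fit of all 9 pools. A fit with a replicate block called 464 (259 higher, median 0.63; 205 lower). Pools of the same number deviated from their group means with correlations of -0.0650, -0.0398 and 0.0124, and no isolated pool correlated best with its own number, so pools sharing a number were not treated as pairs.

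Leaving out single pools gave 1 to 2291 calls, 0 to 1410 higher and 1 to 881 lower. Medians ranged from 0.441 to 0.825 for the higher and from -6.31 (a single locus) to -0.345 for the lower loci. Loci with non-overlapping pools were 4697 of 15219 tested in the 6 pools. They ran from 5557 of 15431 without isolated pool 3 to 7241 of 15376 without isolated pool 2. Fewer pools separate more readily, so a rise is built into leaving a pool out. For unrelated minus brother, leaving out brother pool 1 turned the uncalled log2 differences of XLOC_013478 to -0.0735 and XLOC_014412 to 0.0263, and brought XLOC_005257 (2.91) past the threshold, which the 6 courted pools alone did not (2.78, edgeR adjusted p = 0.391). Causes were not tested. The locus XLOC_011560 did not pass the filter in 4 alternatives.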
